A study of Gallus gallus with 8 samples.

Results

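The central fibers (FC) of the chicken lens, its most differentiated cells, were set against the central epithelium (EC), its least differentiated cells, by mRNA sequencing at embryonic day 13. Of 16906 loci in the deposited table, 12823 carried a gene symbol, and 9932 of these reached 1 FPKM (a level that counts sequenced fragments against the length of the exons and the depth of the library) in FC or in EC. These 9932 loci are described here. The study microdissected lenses into 4 regions and sequenced 2 libraries of each, 8 in all, and the 2 FC and 2 EC libraries enter here. Every library was made from the pooled tissue of 100 lenses. The labels give no treatment, mutation, strain or sex, and FC and EC libraries can hold the same lenses, since each lens gave tissue to every region. The authors' program gave 1 FPKM per locus and region from both libraries, with a 95% interval, so that no value of a single library, no SD and no test over libraries is given here, and the authors' own comparisons were not used. Differences are therefore reported as sizes, with whether the deposited intervals overlap.

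The lens is a closed ball of epithelial origin in which a single layer of cuboidal cells covers the front. Epithelial cells divide, leave the cell cycle at the equator, elongate into fibers, fill with crystallins and at the end lose their nuclei, mitochondria and other organelles. New fibers are laid over older ones, so the fibers at the centre are the oldest and the epithelium at the anterior pole is farthest from differentiation. In dissected tissue, fewer cells of a type and less RNA of a gene per cell cannot be told apart.

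All 7 lens fiber markers in the table reached 1 FPKM in FC, with a summed level of 77001 FPKM in FC and 632 FPKM in EC, so the FC label matched its markers. The 6 epithelial markers ran both ways, and their summed level was not higher in EC, with 47233 FPKM in FC and 21773 FPKM in EC. Nearly all of that sum lay in CRYAA and CRYAB, alpha crystallins of epithelium and fibers alike, which were 2.13-fold and 2.07-fold higher in FC with overlapping intervals. PAX-6 had 57.9 FPKM in FC (95% interval 9.53 to 109.8), against 311 FPKM in EC (11.3 to 627), and FOXE3 lay under 1 FPKM in both, at 0.735 FPKM in FC and 0.318 FPKM in EC. The cadherin genes of the epithelium list were at similar levels in both regions. CDH1 had 2.09 FPKM in FC and 2.82 FPKM in EC. CDH2 had 152 FPKM in FC and 209 FPKM in EC. Red blood cell markers summed to 322 FPKM in FC and 1057 FPKM in EC, with 3 of 8 loci at 1 FPKM or more in FC and 6 of 8 in EC. HBAA, an alpha globin, had 204 FPKM in FC and 564 FPKM in EC. HBB, the beta globin, had 72.9 FPKM in FC and 297 FPKM in EC, while both loci named HBZ were at or near 0. Markers of neural retina summed to 18.8 FPKM in FC and 32.4 FPKM in EC, and those of mesenchyme to 28.7 FPKM in FC and 37.4 FPKM in EC. Single mesenchyme markers ran in opposite directions. COL1A2, a chain of type I collagen, had 1.35 FPKM in FC (95% interval 0.454 to 2.27), against 8.41 FPKM in EC (3.67 to 13.1), without overlap, and COL5A1 had 1.99 FPKM in FC and 8.11 FPKM in EC. DCN, decorin, ran the other way with 11.3 FPKM in FC (95% interval 4.68 to 18), against 1.03 FPKM in EC (0.142 to 1.84), also without overlap. The lists of muscle, leukocytes, pigmented epithelium and endothelium summed to between 3.06 and 19.2 FPKM in FC and between 4.42 and 15 FPKM in EC. The part of these other cells in the results was not tested.

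Of the 9932 loci, 8480 reached 1 FPKM in both regions, 493 in FC only and 959 in EC only. A locus is called measured in a region where it reached 1 FPKM there, and most loci measured in a single region had a value above 0 in the other. Ratios of FC to EC were taken on the log2 scale over the 8480 loci and centred on their median, which lay at a ratio of 1.05 before centring. After centring, 1618 loci (19.1%) were at least 2-fold higher in FC and 1552 (18.3%) at least 2-fold lower, 3170 (37.4%) together. The middle range of all loci, between the quartiles, ran from -0.74 to 0.73 on the log2 scale. Among these 8480 loci the high end reached farther than the low end: 136 loci were at least 16-fold higher in FC and 37 at least 16-fold lower. The minimum in both regions limits how large a fold can be, most of all at low levels. It leaves out the 493 and 959 loci at the minimum in a single region. The deposited intervals were wide, with a median width of 1.62 times the FPKM in FC and 1.33 times in EC. They did not overlap, after centring, at 155 loci that were higher in FC (1.83%) and 183 that were lower (2.16%), all of which were past 2-fold. The count of any list stands against these shares of all loci. Where the intervals overlap, or no interval is mentioned, a ratio is the ratio of the deposited values alone.

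**Figure D1:**
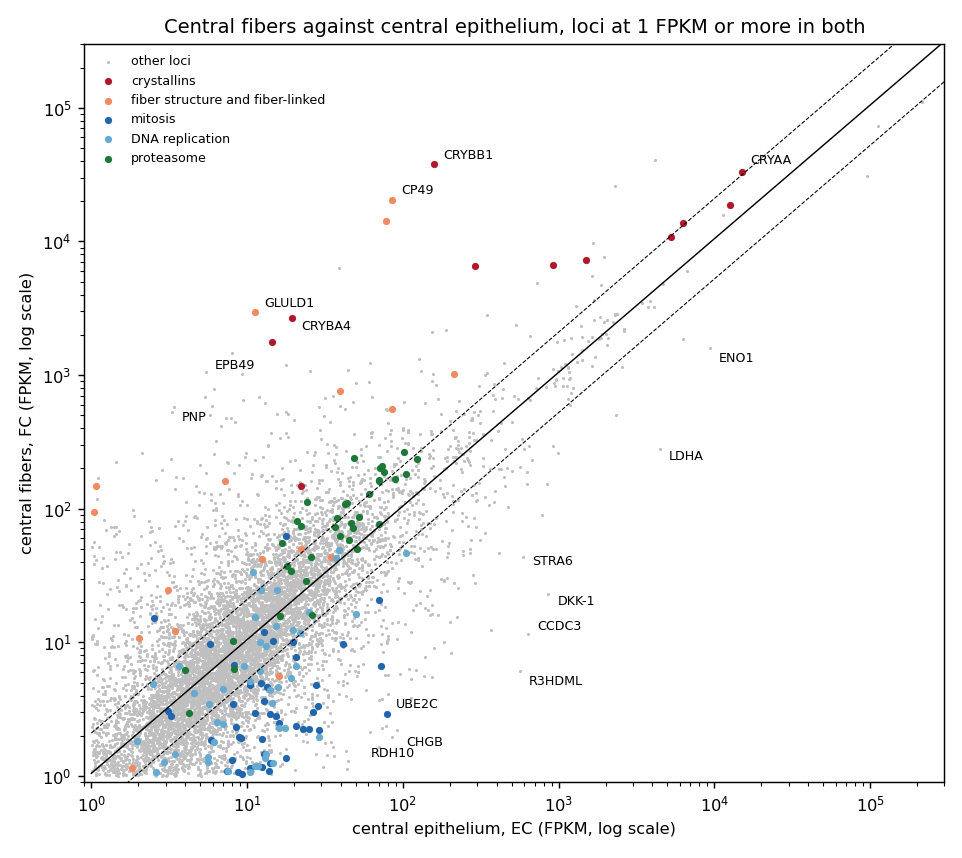
FPKM of each of the 8480 loci at 1 FPKM or more in both regions, in FC (vertical, log scale) against EC (horizontal, log scale); the solid line is the median ratio, the dashed lines are 2-fold above and below it, and coloured points are members of 5 gene lists. Crystallin and fiber loci lie mostly above the lines, mitosis and DNA replication loci mostly below, and 1618 loci are past the upper line against 1552 past the lower.

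Every direction in the text is relative to the median locus, and the split of higher and lower loci depends on that choice. Centred on the upper quartiles of FPKM, which lowers every log2 value by 0.35, 1135 loci were at least 2-fold higher and 2322 at least 2-fold lower in FC. Centred on the FPKM totals, which raises every value by 1.26, 5065 were higher and 330 lower. Centred on cytosolic ribosomal loci, which raises every value by 0.10, 1795 were higher and 1360 lower. The totals rest mostly on loci without a symbol, which hold 65.6% of the summed FPKM in FC and 86.5% in EC. Whether a list lies above or below the median locus does not depend on the centring.

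Differences were not spread evenly over levels. Among loci with a mean of 1 to 5 FPKM, 6.37% were at least 2-fold higher in FC and 22.6% at least 2-fold lower, whereas among loci of 20 to 100 FPKM the shares were 33.8% and 12.8%. The loci at least 2-fold higher had a median level of 22.2 FPKM over both regions, those at least 2-fold lower 7.44 FPKM. The part of level in the counts of any gene list was not tested. In FC the 10 most abundant nuclear loci held 33.7% of the FPKM of all nuclear members, against 21.3% in EC. The crystallin gene ASL1, left out of the authors' run, is in neither share. The span of the loci on the genome did not separate the sets, with medians of 16.7 kb for the loci higher in FC, 16.7 kb for those lower and 16.1 kb for all.

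**Figure D2:**
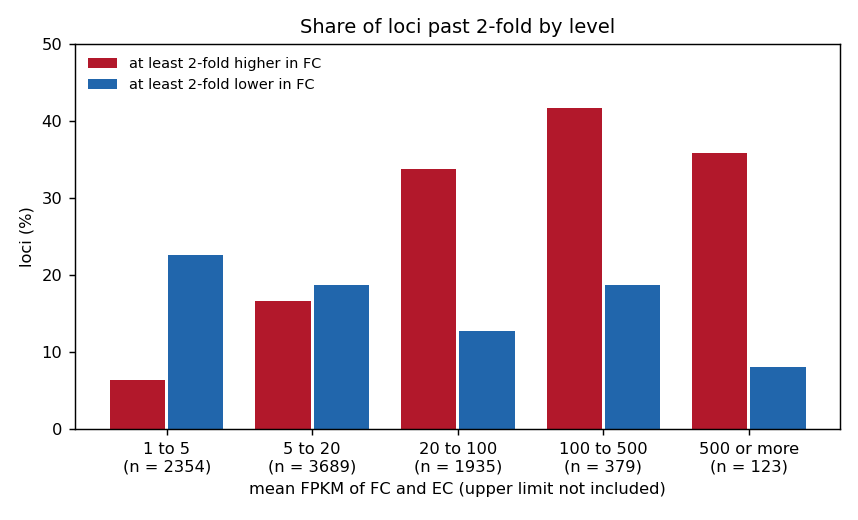
Share of loci at least 2-fold higher (red) or lower (blue) in FC, in percent (vertical), by the mean FPKM of the 2 regions (horizontal, 5 bins, number of loci in brackets). The higher share is 6.37% in the lowest bin and 41.7% at 100 to 500 FPKM, while the lower share is 22.6% in the lowest bin and 8.13% in the highest.

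The crystallins, the soluble proteins that give the lens its refractive power, had the highest median of the 46 gene lists with more than 5 loci, the cell type markers set aside. All 11 crystallin loci were measured in both regions. At least 2-fold higher in FC were 9 (81.8%, against 19.1% of all loci), and none was at least 2-fold lower (18.3% of all loci). The intervals of 5 did not overlap (1.83% over all loci), and the median ratio was 2.66 on the log2 scale. The beta class lay on both sides of the alpha class and held the largest difference. CRYBB1, a beta crystallin at chr15:7176717-7179013 on Galgal4, had 37643 FPKM in FC (95% interval 1528 to 73746), against 159 FPKM in EC (48.6 to 250.2), which is 226-fold higher in FC and at least 5.83-fold by the interval ends. Its neighbour CRYBA4, at chr15:7181149-7182285, had 2691 FPKM in FC (95% interval 472 to 4884), against 19.4 FPKM in EC (4.32 to 26.6). CRYGN, of the gamma class, had 1761 FPKM in FC and 14.4 FPKM in EC. CRYBB3 had 6503 FPKM in FC and 289 FPKM in EC, and neither CRYGN nor CRYBB3 had overlapping intervals. The alpha crystallins, small heat shock proteins that hold other proteins in solution, were abundant in both regions, with CRYAA at 33339.7 FPKM in FC and 14933 FPKM in EC and CRYAB at 13681 FPKM in FC and 6317 FPKM in EC. CRYBA2 differed least, with 18864 FPKM in FC and 12683 FPKM in EC, and CRYBB2 lay just under 2-fold with 10780.2 FPKM in FC and 5249 FPKM in EC. Of the delta crystallins, which are a bird specialty derived from argininosuccinate lyase, ASL2 had 7264 FPKM in FC and 1499.8 FPKM in EC with overlapping intervals. The other delta crystallin locus, ASL1, was left out of the authors' run and is not analysed here.

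A list of fiber structure and fiber-linked genes followed the same direction. The list held 20 loci, of which 17 were measured in both regions, with a median of 2.64. Of these, 14 (82.4%) were at least 2-fold higher and 1 (5.88%) at least 2-fold lower in FC, against 19.1% and 18.3% of all loci. This list was chosen with earlier results of these data known, so its counts and median describe its own loci only. The beaded filament, an intermediate filament found in lens fibers alone, is built from CP49 and BFSP1. CP49 had 20441 FPKM in FC (95% interval 467 to 40277), against 85.7 FPKM in EC (26.8 to 144), a 228-fold difference and at least 3.09-fold by the interval ends. BFSP1 had 14305 FPKM in FC (95% interval 0.563 to 47935), against 77.9 FPKM in EC (9.33 to 150.2), a 175-fold difference whose intervals overlapped. GLULD1, the lens protein also called lengsin, showed the largest ratio of all loci in both regions, with 2939 FPKM in FC (95% interval 0 to 14195), against 11.3 FPKM in EC (3.03 to 19.5), but its FC interval began at 0. TDRD7, a granule protein whose loss gives cataract in humans and mice, had 763 FPKM in FC and 39.8 FPKM in EC. CAPRIN2, an RNA-binding protein of fibers, had 162 FPKM in FC and 7.21 FPKM in EC without overlap. NRCAM, an adhesion molecule that is tied to the spectrin skeleton through ankyrin, had 95.2 FPKM in FC (95% interval 7.95 to 255), against 1.03 FPKM in EC (0.221 to 2.07). BIRC7, an inhibitor of apoptosis protein, was at 49.3 FPKM in FC and 0.655 FPKM in EC, and therefore counted as measured in FC only. EFNA5, an ephrin ligand, ran the other way with 5.57 FPKM in FC and 15.9 FPKM in EC, while its receptor family member EPHA2 had 42.1 FPKM in FC and 12.4 FPKM in EC. The fiber genes MIP, LIM2 and GRIFIN were not analysed here, as no locus of these names was matched.

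**Figure D3:**
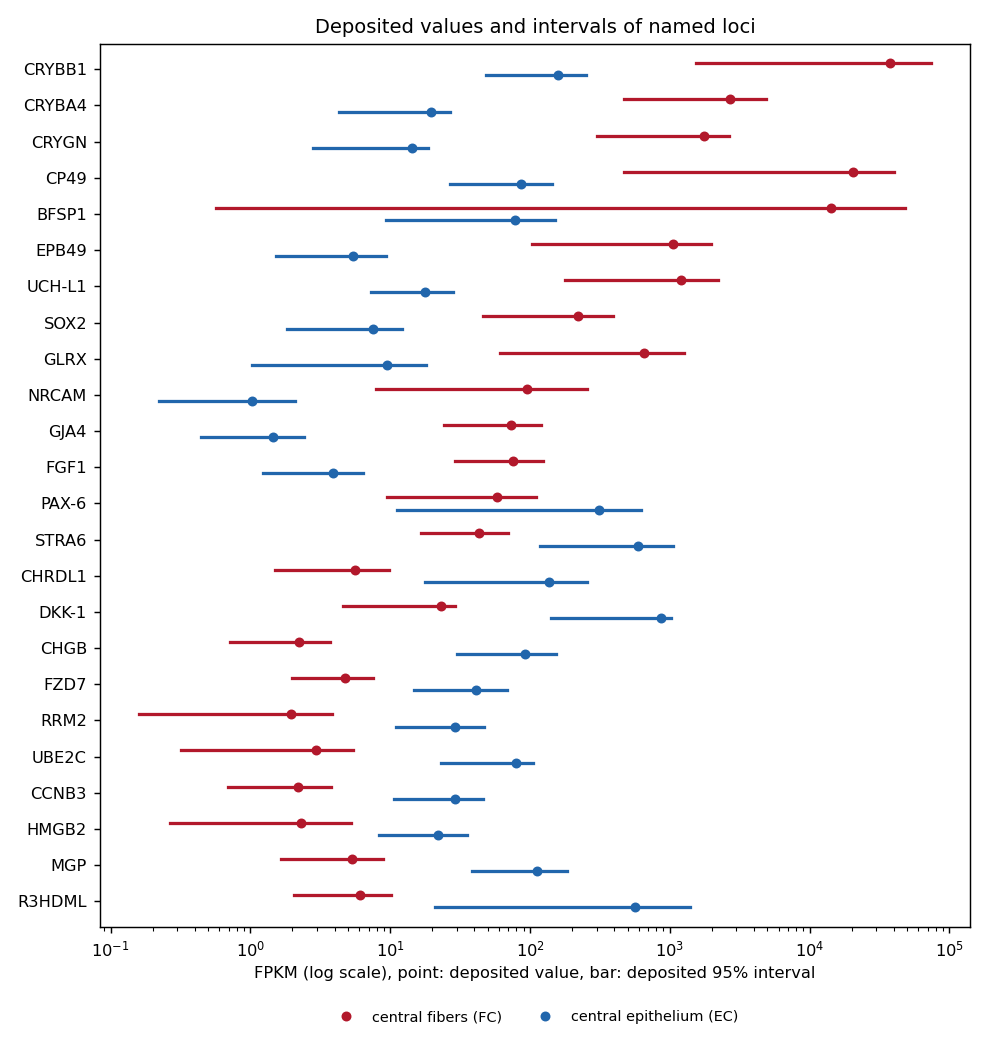
Deposited FPKM (points) and 95% interval (bars) of 24 named loci in FC (red, upper) and EC (blue, lower), on a log scale without centring. The bars of CP49 and CRYBB1 lie apart, those of BFSP1 overlap, and in the lower part the EC bars of UBE2C, DKK-1 and CHGB lie above the FC bars.

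Transcription factors of the lens split into a set higher and a set lower in FC. Of 13 measured in both regions, 6 (46.2%) were at least 2-fold higher and 6 (46.2%) at least 2-fold lower. The shares of all loci were 19.1% and 18.3%. Only SOX2 and GATA3 had intervals that did not overlap. SOX2, a partner of PAX6 in turning on crystallin genes, had 221 FPKM in FC (95% interval 46 to 392), against 7.49 FPKM in EC (1.84 to 12.2), 28.1-fold higher in FC. GATA3, which in mice is needed for fiber cells to leave the cell cycle, had 10.6 FPKM in FC and 1.01 FPKM in EC. HSF4, the heat shock factor of lens fibers, had 92.1 FPKM in FC (95% interval 1.26 to 319.5), against 0.704 FPKM in EC (0 to 1.58), so it was measured in FC only and its intervals overlapped. The MAF family and its partners were higher by less, with MAF at 101 FPKM in FC and 40.6 FPKM in EC, MAFA at 176 FPKM in FC and 75.8 FPKM in EC, PROX1 at 57.5 FPKM in FC and 23.9 FPKM in EC and PITX3 at 824 FPKM in FC and 308 FPKM in EC. On the other side stood factors of the surface ectoderm and early eye. PAX-6 was 5.63-fold lower in FC. EYA1 had 1.42 FPKM in FC and 6.91 FPKM in EC. MAB21L1 had 57.5 FPKM in FC and 178 FPKM in EC. TFAP2A had 18.4 FPKM in FC and 49 FPKM in EC. MEIS1 had 4.51 FPKM in FC and 14.7 FPKM in EC. All of the factors lower in FC had overlapping intervals.

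Mitosis had the lowest median of the 46 gene lists. Of 79 mitosis loci, 45 were measured in both regions, and 37 of these (82.2%) were at least 2-fold lower in FC against 18.3% of all loci. The intervals of 22 did not overlap, all of them lower in FC, against 2.16% of all loci, and the median was -2.33. With a minimum of 5 FPKM in both regions the median was -1.01, next to -1.02 for the capsule genes. A further 34 loci reached 1 FPKM in EC only, so the minimum fixed their direction and they enter neither the counts nor the median. UBE2C, the enzyme that marks mitotic cyclins for destruction, had 2.93 FPKM in FC (95% interval 0.318 to 5.4), against 78.9 FPKM in EC (23.2 to 105), which is 28.2-fold lower in FC and at least 4.5-fold by the interval ends. CCNB3, a B-type cyclin, had 2.2 FPKM in FC and 28.9 FPKM in EC. CENPH, a kinetochore protein, had 1.08 FPKM in FC and 13.9 FPKM in EC. SMC2, a condensin subunit, had 1.35 FPKM in FC and 17.9 FPKM in EC. The intervals of these 4 did not overlap. The mitotic kinase genes CDC2, with 6.62 FPKM in FC and 72.9 FPKM in EC, and PLK1, with 2.27 FPKM in FC and 22.7 FPKM in EC, also had intervals that did not overlap. CIT and CDC20 stood apart from the list, with 15.1 FPKM in FC and 2.51 FPKM in EC for the cytokinesis kinase CIT and 62.6 FPKM in FC and 17.7 FPKM in EC for CDC20, which activates the anaphase complex, and the intervals of both overlapped.

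DNA replication and nucleotide supply ran in the same direction with a smaller median, -1.29 over 46 loci. Of these, 27 (58.7%) were at least 2-fold lower and 1 (2.17%) at least 2-fold higher, against 18.3% and 19.1% of all loci. Another 10 were measured in EC only, a direction fixed by the minimum, and are not counted. RRM2, the inducible subunit of ribonucleotide reductase, had 1.97 FPKM in FC (95% interval 0.16 to 3.85), against 29 FPKM in EC (11.1 to 46.9). TK1 had 1.25 FPKM in FC and 14.7 FPKM in EC. TYMS had 1.18 FPKM in FC and 11.8 FPKM in EC. CDC45, a part of the replicative helicase, had 1.07 FPKM in FC and 10.5 FPKM in EC. None of these had overlapping intervals. The helicase subunit MCM2 had 2.31 FPKM in FC and 17.5 FPKM in EC. PCNA, the sliding clamp, kept 46.9 FPKM in FC and 105 FPKM in EC, and RFC2, a clamp loader subunit with roles in repair too, was 2.92-fold higher in FC with 33.5 FPKM in FC and 11 FPKM in EC. Regulators of the G1 phase were mixed. Of 31 loci, 7 (22.6%) were at least 2-fold higher and 9 (29%) at least 2-fold lower, against 19.1% and 18.3% of all loci. CDK2 had 2.85 FPKM in FC (95% interval 0.638 to 4.94), against 25.3 FPKM in EC (8.29 to 39.1). E2F1 had 3.53 FPKM in FC and 12.7 FPKM in EC. In contrast CDKN1B, the inhibitor p27 that holds cells out of the cycle, had 86.3 FPKM in FC and 35.9 FPKM in EC. CCNG1, a target of p53, had 142 FPKM in FC and 28.1 FPKM in EC. CDK6 had 31.4 FPKM in FC and 8.04 FPKM in EC. The intervals of CDKN1B, CCNG1 and CDK6 overlapped.

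Lists of the nucleus and its RNA had medians somewhat below the median locus, by less than those of cell division. The median of chromatin enzymes and remodelers was -0.39, with 11 of 79 (13.9%) at least 2-fold higher and 19 (24.1%) at least 2-fold lower. That of splicing and nuclear RNA proteins was -0.54, with 4 (7.14%) and 13 (23.2%) of 56. That of the nuclear lamina and pores was -0.22, with 9 (18.4%) and 12 (24.5%) of 49. Over all loci the shares were 19.1% and 18.3%. Of the high mobility group proteins, HMGB2, which bends DNA, had 2.31 FPKM in FC (95% interval 0.265 to 5.21), against 21.9 FPKM in EC (8.38 to 35.4). HMGN2, which binds nucleosomes, had 29.4 FPKM in FC and 183 FPKM in EC, also without overlap, while HMGB1, a relative of HMGB2, lay within 2-fold with 78.6 FPKM in FC and 146 FPKM in EC. The import receptors parted: KPNA2 had 3.75 FPKM in FC (95% interval 0.764 to 7.33), against 46.8 FPKM in EC (14.7 to 78.8), 13.1-fold lower in FC, whereas KPNB1 had 298 FPKM in FC and 70.4 FPKM in EC. KPNA1 had 43.2 FPKM in FC and 8.47 FPKM in EC. NUPL2, a nucleoporin, was higher without overlap, with 60 FPKM in FC and 3.68 FPKM in EC. LMNB1, lamin B1, had 3.74 FPKM in FC and 16.5 FPKM in EC. Among the splicing factors SRSF3 had 37.2 FPKM in FC and 133 FPKM in EC. HNRNPA0 had 4.01 FPKM in FC and 28.2 FPKM in EC, against LSM12 with 227 FPKM in FC and 55.8 FPKM in EC. RNA granule and RNA-binding proteins centred on the median locus (-0.01) but held some of the largest differences, with RBM24, an RNA-binding protein of muscle and eye, at 615 FPKM in FC and 13 FPKM in EC and RBM38 at 529 FPKM in FC and 17.7 FPKM in EC. YBX1, a cold shock protein that packs mRNA, was among the 10 most abundant loci of FC with 25837 FPKM in FC and 2299.6 FPKM in EC.

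The cytoskeleton under the fiber membrane stood out in a few abundant members. Of 27 spectrin, actin and membrane skeleton loci, 10 (37%) were at least 2-fold higher and 3 (11.1%) at least 2-fold lower in FC. The shares of all loci were 19.1% and 18.3%, or 33.8% and 12.8% at a mean of 20 to 100 FPKM. The list had a median of 0.57, and the part of level in it was not tested. EPB49, dematin, which bundles actin at the spectrin lattice, had 1047 FPKM in FC (95% interval 104 to 1977), against 5.44 FPKM in EC (1.53 to 9.3), 184-fold higher and at least 10.7-fold by the interval ends. The spectrin chain SPTAN1 had 865 FPKM in FC and 50.2 FPKM in EC. Its partner SPTBN1 had 681 FPKM in FC and 63.4 FPKM in EC. TMOD1, which caps actin filaments, had 10.7 FPKM in FC and 2.02 FPKM in EC without overlap. The 4.1 family proteins of epithelial cells lay on the other side, EPB41L4B with 3.29 FPKM in FC and 23.4 FPKM in EC and EPB41L5 with 5.2 FPKM in FC and 30.3 FPKM in EC. PALM, paralemmin, a lipid-anchored protein of the inner membrane face, had 788 FPKM in FC (95% interval 40.1 to 1535), against 6.17 FPKM in EC (1.42 to 14.6). BASP1, an inner membrane protein rich in growth cones, had 6331 FPKM in FC (95% interval 209.8 to 12416), against 38.8 FPKM in EC (12.5 to 58.7). VIM, vimentin, the intermediate filament of both cell kinds, had 7651 FPKM in FC and 1955 FPKM in EC with overlap.

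Microtubule genes had a median of 0.81 over 36 loci. Of these, 14 (38.9%) were at least 2-fold higher and 3 (8.33%) at least 2-fold lower, against 19.1% and 18.3% of all loci. At a mean of 20 to 100 FPKM the shares of all loci were 33.8% and 12.8%. The part of level in the microtubule list was not tested. TUBB6 had the highest ratio of the list, with 477 FPKM in FC and 7.32 FPKM in EC. TUBB3, the neuronal beta tubulin, had 80.7 FPKM in FC (95% interval 28.2 to 132), against 3.99 FPKM in EC (1.19 to 6.76). DCLK2, a doublecortin-like kinase, had 64.5 FPKM in FC (95% interval 4.8 to 143), against 1.45 FPKM in EC (0.281 to 2.64). KIF1A, a motor of axonal transport, had 578 FPKM in FC and 28.9 FPKM in EC. MAP6, a microtubule stabiliser of neurons, had 1.34 FPKM in FC and 2.42 FPKM in EC, within 2-fold. STMN1, stathmin, which takes microtubules apart and is typical of dividing cells, had 199.9 FPKM in FC and 469 FPKM in EC. UCH-L1, the ubiquitin hydrolase known from neurons, had 1193 FPKM in FC (95% interval 178 to 2211), against 17.7 FPKM in EC (7.34 to 28), at least 6.06-fold higher by the interval ends.

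Junction genes did not share a direction. GJA3, a gap junction gene of fibers, had 554 FPKM in FC and 84.8 FPKM in EC, 6.24-fold higher in FC with overlapping intervals. GJA4, another connexin, had 72.9 FPKM in FC (95% interval 24.3 to 121), against 1.45 FPKM in EC (0.443 to 2.44). GJA1, connexin 43 of the epithelium, had 123 FPKM in FC and 336 FPKM in EC. CLDN5, a tight junction claudin, had 1.98 FPKM in FC (95% interval 0 to 3.64), against 13.7 FPKM in EC (3.89 to 23.3). Among cadherins, catenins and integrins (27 loci, median 0.02) CDH11 had 1.3 FPKM in FC (95% interval 0.234 to 2.84), against 44.5 FPKM in EC (3.95 to 89), 35.9-fold lower in FC, while CTNNA1, alpha-E-catenin, had 339 FPKM in FC and 76.4 FPKM in EC. PCDHA11, a protocadherin, was among the lowest of all loci with 1.64 FPKM in FC (95% interval 0.182 to 4.13), against 69.9 FPKM in EC (22.8 to 117). ITGB1, the common beta chain of matrix receptors, had 26.9 FPKM in FC and 51.7 FPKM in EC.

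The epithelium lies on the lens capsule, a thick basement membrane, and genes of the capsule lay below the median locus as a list (-0.92). Of 29 loci, 4 (13.8%) were at least 2-fold higher and 13 (44.8%) at least 2-fold lower, against 19.1% and 18.3% of all loci. Another 6 were measured in EC only, a direction fixed by the minimum, and are not counted. The mesenchyme markers COL1A2 and COL5A1 were lower in FC beside this list and DCN was higher, and their part in it was not tested. Type IV collagen chains differed among themselves, with COL4A3 at 14.1 FPKM in FC and 200.5 FPKM in EC, COL4A4 at 187 FPKM in FC and 631 FPKM in EC and COL4A5 at 378 FPKM in FC and 406 FPKM in EC. SPARC, a matrix protein secreted by the epithelium, had 1147 FPKM in FC and 2560.3 FPKM in EC. Laminin alpha chains also parted: LAMA3 had 3.74 FPKM in FC and 73.8 FPKM in EC, whereas LAMA5 had 31.8 FPKM in FC (95% interval 7.54 to 56), against 2.34 FPKM in EC (0.544 to 4.49). LAMA1 had 12.2 FPKM in FC and 4.49 FPKM in EC. NPNT, nephronectin, a ligand of integrins, was higher in FC with 44.5 FPKM in FC (95% interval 5.73 to 86.5), against 1.03 FPKM in EC (0.298 to 1.79). LOXL1, which crosslinks elastin, had 9.83 FPKM in FC and 79.6 FPKM in EC. MGP, matrix Gla protein, an inhibitor of calcification, had 5.33 FPKM in FC (95% interval 1.64 to 8.92), against 113 FPKM in EC (38.2 to 184).

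**Figure D4:**
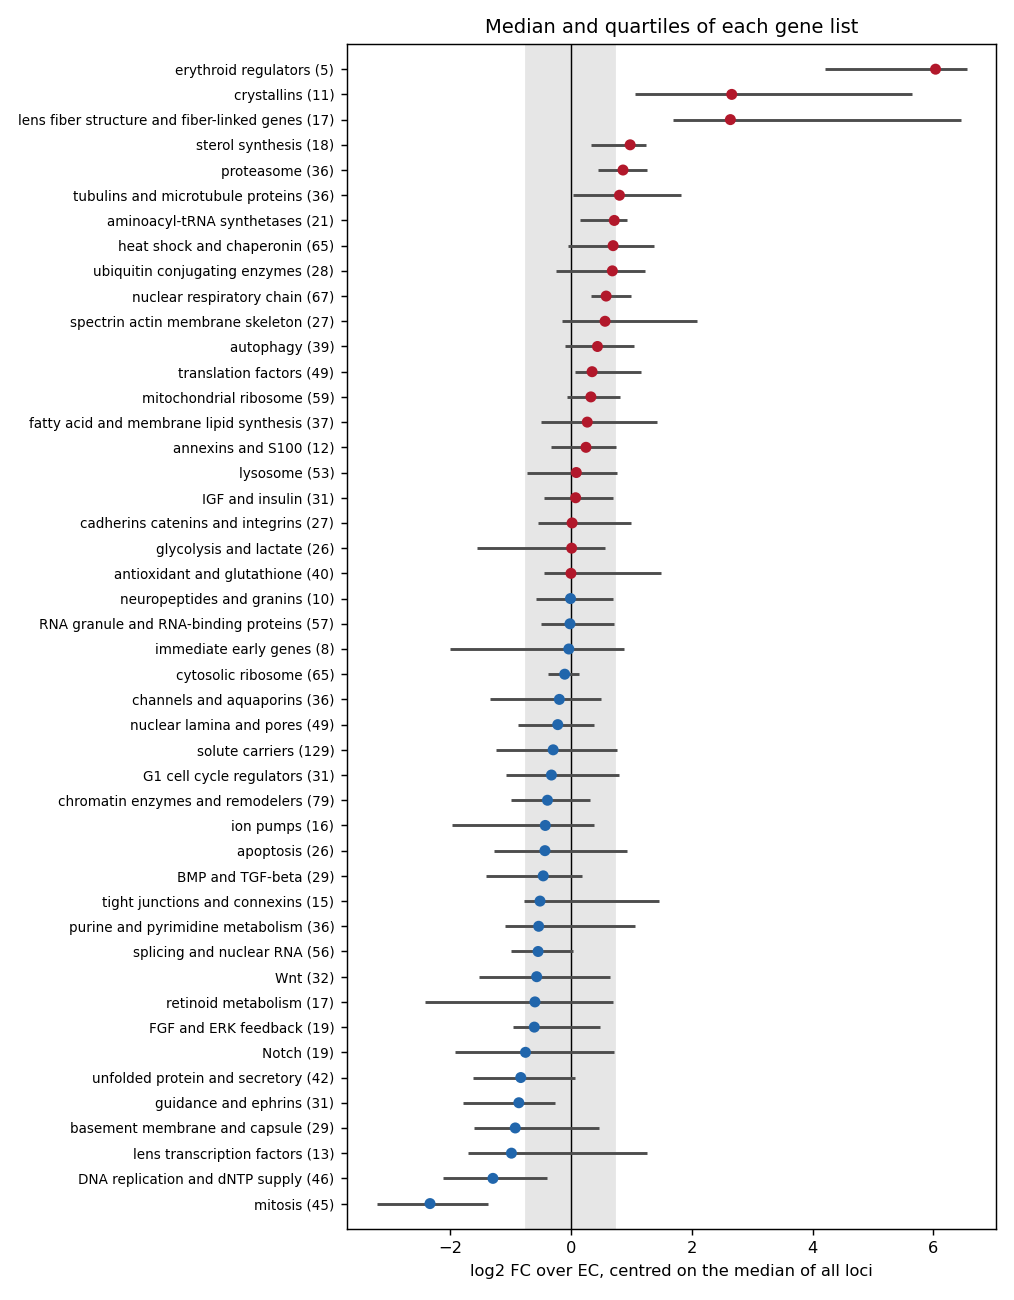
Median (point, red above and blue below the median locus) and quartiles (bar) of the centred log2 ratio of FC over EC for 46 gene lists (vertical, number of loci measured in both regions in brackets); the grey band spans the quartiles of all 8480 loci. Crystallins and the list of fiber structure and fiber-linked genes have medians of 2.66 and 2.64, mitosis has -2.33, and most other lists lie within the band. The top list holds 5 loci only.

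Wnt signalling had members at both ends of the whole range. Of 32 loci measured in both regions, 7 were at least 2-fold higher and 14 at least 2-fold lower in FC (21.9% and 43.8%, against 19.1% and 18.3% of all loci). Among ligands, WNT7A had 213 FPKM in FC and 8.86 FPKM in EC. WNT7B had 107 FPKM in FC and 4.89 FPKM in EC. WNT5B had 111 FPKM in FC and 6.98 FPKM in EC, without overlap. In contrast WNT2B had 46.4 FPKM in FC and 413 FPKM in EC. The secreted enhancer RSPO1 had 51.5 FPKM in FC and 1.12 FPKM in EC. Its receptor LGR5 had 2.3 FPKM in FC and 73.4 FPKM in EC. The frizzled receptor FZD7 had 4.75 FPKM in FC (95% interval 1.97 to 7.57), against 41.4 FPKM in EC (14.8 to 68). DKK-1, an inhibitor that removes Wnt coreceptors, had 23.1 FPKM in FC (95% interval 4.56 to 28.9), against 861 FPKM in EC (141 to 1021), 39-fold lower in FC and at least 5.13-fold by the interval ends, whereas DKK3, a divergent member of that family, had 1311 FPKM in FC and 126 FPKM in EC. Ligands and inhibitors were thus found on each side.

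Regulators of BMP and TGF-beta signals did the same. TGFB2, a ligand that in excess drives lens epithelium to a mesenchymal form, had 15.4 FPKM in FC and 222 FPKM in EC. BMP7 had 2.89 FPKM in FC and 10.6 FPKM in EC. The BMP antagonist CHRDL1 had 5.6 FPKM in FC (95% interval 1.49 to 9.74), against 136 FPKM in EC (17.7 to 255). FSTL1, a follistatin-like binding protein, had 49.7 FPKM in FC and 272 FPKM in EC. Higher in FC were BMPER, another BMP binding protein, with 69.1 FPKM in FC and 1.24 FPKM in EC, and the ligand GDF10 with 73.3 FPKM in FC (95% interval 6.62 to 148), against 1.4 FPKM in EC (0.0742 to 2.96). ID1, a target gene of BMP signals, had 32.9 FPKM in FC and 10.9 FPKM in EC. Over the list, 3 of 29 loci (10.3%) were at least 2-fold higher and 10 (34.5%) at least 2-fold lower. The shares of all loci were 19.1% and 18.3%.

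FGF signals drive fiber differentiation in vertebrate lenses. The ligand FGF1 had 76 FPKM in FC (95% interval 29 to 123), against 3.88 FPKM in EC (1.24 to 6.43), 18.7-fold higher in FC, and FGF22 had 26.6 FPKM in FC and 2.62 FPKM in EC. The receptors ran from FGFR3, with 55.1 FPKM in FC and 198 FPKM in EC, to FGFR1, with 58.1 FPKM in FC and 72.9 FPKM in EC. ETV4, a transcription factor turned on by ERK, had 19.6 FPKM in FC and 1.94 FPKM in EC without overlap. DUSP4, a phosphatase of ERK feedback, had 7.78 FPKM in FC and 2.51 FPKM in EC. SPRED2, an inhibitor of the same pathway, had 1.65 FPKM in FC and 4.77 FPKM in EC. The list as a whole held 4 loci at least 2-fold higher and 3 at least 2-fold lower of 19 (21.1% and 15.8%), near the 19.1% and 18.3% of all loci.

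Of the Notch genes, 9 of 19 (47.4%) were at least 2-fold lower and 3 (15.8%) at least 2-fold higher. The shares of all loci were 18.3% and 19.1%. JAG1, the ligand, had 84.9 FPKM in FC and 4.74 FPKM in EC. The target HEY1 had 10.8 FPKM in FC and 41.5 FPKM in EC. MAML2, a coactivator of Notch, had 1.28 FPKM in FC (95% interval 0.282 to 2.51), against 10.7 FPKM in EC (2.91 to 18.6). The target NRARP ran with the ligand, at 42.2 FPKM in FC and 10.9 FPKM in EC, and the intervals of HEY1 and NRARP overlapped. Both loci named HES4 in the list were lower in FC without overlap. One had 11.2 FPKM in FC and 80.4 FPKM in EC, the other 2.7 FPKM in FC and 14.9 FPKM in EC. Retinoid genes gave large differences on the uptake side. STRA6, the membrane receptor for retinol carried by its binding protein, had 43.3 FPKM in FC (95% interval 16.5 to 69.9), against 592 FPKM in EC (118 to 1061). RDH10, which oxidises retinol on the way to retinoic acid, had 1.95 FPKM in FC (95% interval 0.59 to 4.53), against 85.6 FPKM in EC (6.54 to 187), 45.9-fold lower in FC. The binding proteins RBP5 and CRABP-I were lower as well, with 22.4 FPKM in FC and 143 FPKM in EC for RBP5 and 3.63 FPKM in FC and 35.5 FPKM in EC for CRABP-I, neither with overlap. The nuclear receptor RARA had 104 FPKM in FC and 57 FPKM in EC.

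IGF and insulin genes were spread around the median locus (0.08). The binding proteins were low in FC, IGFBP7 with 154 FPKM in FC and 842 FPKM in EC and IGFBP5 with 1.18 FPKM in FC and 7.39 FPKM in EC. MTOR, the growth kinase that also restrains autophagy, had 52.3 FPKM in FC and 5.47 FPKM in EC. 

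Guidance cues lay below the median locus as a list (-0.86). Of 31 loci, 2 (6.45%) were at least 2-fold higher and 15 (48.4%) at least 2-fold lower, against 19.1% and 18.3% of all loci. SLIT2 had 12.9 FPKM in FC and 78.5 FPKM in EC, and SEMA5B had 6.74 FPKM in FC and 45.8 FPKM in EC. SEMA5A lay on the other side at 62.2 FPKM in FC and 16 FPKM in EC. Of the genes that respond at once to stimulation, CYR61, a matrix-associated target of YAP, had 12.4 FPKM in FC and 369 FPKM in EC. CTGF had 1.38 FPKM in FC and 9.29 FPKM in EC without overlap. JUN had 138 FPKM in FC (95% interval 46 to 228), against 23.7 FPKM in EC (7.87 to 36.8). FOSL2 was measured in EC only, with 0.259 FPKM in FC and 11.5 FPKM in EC.

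Energy metabolism differed by enzyme. The median of the glycolysis list sat on the median locus (0.01), but more of its loci were lower than higher. Of 26 loci, 8 (30.8%, against 18.3% of all loci) were at least 2-fold lower in FC and 3 (11.5%, against 19.1%) at least 2-fold higher. The list summed to 12220 FPKM in FC and 23839 FPKM in EC. LDHA, the muscle-type lactate dehydrogenase that turns pyruvate into lactate, had 279 FPKM in FC (95% interval 67.7 to 491), against 4469 FPKM in EC (53.7 to 9113), 16.8-fold lower in FC. ENO1, alpha-enolase, had 1593 FPKM in FC (95% interval 222 to 2958), against 9357 FPKM in EC (18.9 to 19355). ENO1 was among the 10 most abundant loci of EC, and the lactate carrier SLC16A1 had 30.3 FPKM in FC and 193 FPKM in EC. The 3 loci at least 2-fold higher were ALDOC at 1228 FPKM in FC and 446 FPKM in EC, PFKL at 304 FPKM in FC and 107 FPKM in EC and ENO2 at 16.9 FPKM in FC and 7.98 FPKM in EC. PFKP, an isozyme of PFKL, was lower in FC, with 9.54 FPKM in FC and 43.1 FPKM in EC. GAPDH was near equal, at 6004 FPKM in FC and 6663 FPKM in EC. The intervals of all of these overlapped.

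Nuclear genes of the respiratory chain lay above the median locus by a small and even amount. Of 67 measured in both regions, 60 lay above it, 17 (25.4%) were at least 2-fold higher in FC and none at least 2-fold lower. The median was 0.58. Over all loci 19.1% were at least 2-fold higher, with 33.8% at a mean of 20 to 100 FPKM and 41.7% at 100 to 500 FPKM. The part of level in this list was not tested. NDUFS5, a complex I subunit, had 218 FPKM in FC (95% interval 62.1 to 373), against 36.5 FPKM in EC (13 to 58.9), the single member without overlap, and NDUFB10 had 624 FPKM in FC and 102 FPKM in EC. At the low end, SDHD, a complex II subunit, had 24 FPKM in FC and 32.3 FPKM in EC. Mitochondrial ribosomal proteins had a median of 0.33, with 10 of 59 (16.9%, against 19.1% of all loci) at least 2-fold higher. Only 1 (1.69%, against 18.3%) was at least 2-fold lower. MRPL39 had 45.9 FPKM in FC and 10.4 FPKM in EC without overlap. The 3 loci of the mitochondrial genome itself summed to 215178 FPKM in FC and 422802 FPKM in EC. That was 8.2% of all FPKM in FC and 7.07% in EC, totals that rest mostly on loci without a symbol. The FPKM of these 3 loci lay outside their own deposited intervals. Their ratios enter the counts and the median over all loci but are not given singly.

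Among genes of lipid synthesis, those for sterols stood above the median locus as a list. Of 18 sterol loci, 9 (50%) were at least 2-fold higher in FC and 1 (5.56%) at least 2-fold lower, against 19.1% and 18.3% of all loci. The list had a median of 0.98 and no interval apart. At a mean of 20 to 100 FPKM, 33.8% of all loci were at least 2-fold higher. The part of level in the sterol list was not tested. SC5DL, a desaturase late in cholesterol synthesis, had 445 FPKM in FC and 34.2 FPKM in EC. HMGCS1, which makes the HMG-CoA at its start, had 119.7 FPKM in FC and 24.2 FPKM in EC. INSIG1 and INSIG2, which hold the pathway back, had 52.1 FPKM in FC and 6.45 FPKM in EC for INSIG1 and 4.76 FPKM in FC and 12 FPKM in EC for INSIG2. Among fatty acid genes, ELOVL1, an elongase of long chains, had 125 FPKM in FC (95% interval 14.9 to 235), against 8.8 FPKM in EC (3.7 to 13.9). SCD, stearoyl-CoA desaturase, had 161 FPKM in FC and 15.4 FPKM in EC. PLD1, a phospholipase, was lower with 1.25 FPKM in FC and 13.9 FPKM in EC.

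Purine salvage held large differences at single enzymes. The list of purine and pyrimidine metabolism, which holds them, had no steady direction. Its median was -0.53 and turned to 0.53 with a minimum of 5 FPKM in both regions. Of its 36 loci, 11 (30.6%) were at least 2-fold higher and 11 (30.6%) at least 2-fold lower in FC. Over all loci the shares were 19.1% and 18.3%. PNP, purine nucleoside phosphorylase, had 580.3 FPKM in FC (95% interval 1.01 to 1333), against 3.39 FPKM in EC (0.899 to 5.85), 163-fold higher in FC. ADA, adenosine deaminase, had 129 FPKM in FC and 5.85 FPKM in EC. The nucleotidase NT5C2 had 481 FPKM in FC and 7.9 FPKM in EC. The intervals of PNP, ADA and NT5C2 overlapped. APRT, which salvages adenine, had 1.3 FPKM in FC (95% interval 0.138 to 2.48), against 7.93 FPKM in EC (2.62 to 13.2). ADSS, a step of AMP synthesis, had 7.54 FPKM in FC and 38.2 FPKM in EC.

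Protein degradation by the proteasome lay above the median locus in nearly every member. All but 5 of the 36 proteasome loci measured in both regions lay above the median locus, 15 (41.7%, against 19.1% of all loci) were at least 2-fold higher in FC and none at least 2-fold lower, with a median of 0.86. Not 1 member had intervals apart. Over all loci, those at least 2-fold higher were 33.8% at a mean of 20 to 100 FPKM and 41.7% at 100 to 500 FPKM. Those at least 2-fold lower were 12.8% and 18.7%. The part of level in the values of this list was not tested. PSMC5, an ATPase of the regulatory cap, had 239 FPKM in FC and 48.9 FPKM in EC. PSMB7, a catalytic subunit, had 266 FPKM in FC and 102 FPKM in EC. Alternative activators stood near the low end, PSME3 at 16 FPKM in FC and 26.1 FPKM in EC and PSME4 at 2.98 FPKM in FC and 4.22 FPKM in EC. Ubiquitin conjugating enzymes had a median of 0.69 and a wide range. UBE2O, a large enzyme known from the remodelling of the proteome in red cell precursors, had 242 FPKM in FC and 9.7 FPKM in EC. UBE2Q2 had 253 FPKM in FC and 26.7 FPKM in EC, while the enzymes of the cell cycle and of DNA repair, UBE2C and UBE2T, lay at the other end (UBE2T with 3.52 FPKM in FC and 30.8 FPKM in EC).

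Autophagy genes had a median of 0.44. Of 39 loci, 11 (28.2%) were at least 2-fold higher and 2 (5.13%) at least 2-fold lower in FC. The shares of all loci were 19.1% and 18.3%, and at a mean of 20 to 100 FPKM they were 33.8% and 12.8%. No locus of the list had intervals apart. The part of level in this list was not tested. ATG4B, the protease that prepares ATG8 proteins, had 140.2 FPKM in FC and 16.6 FPKM in EC. WIPI1, a lipid sensor of the forming membrane, had 259.9 FPKM in FC and 33.2 FPKM in EC. ATG3, which conjugates ATG8 proteins to lipid, had 19.7 FPKM in FC and 3.3 FPKM in EC. Of the mitophagy receptors, BNIP3 had 98.4 FPKM in FC and 16.1 FPKM in EC. BNIP3L had 231 FPKM in FC and 124 FPKM in EC. FUNDC1 had 8.07 FPKM in FC and 12.7 FPKM in EC. The cargo adaptor SQSTM1 had 54.1 FPKM in FC and 13.5 FPKM in EC. FYCO1, which carries autophagosomes along microtubules and is mutated in congenital cataract, was counted in the fiber list and not in this one. FYCO1 had 24.6 FPKM in FC (95% interval 8.48 to 40.6), against 3.09 FPKM in EC (1.23 to 4.96). Of 53 lysosomal loci 11 (20.8%) were at least 2-fold higher and 10 (18.9%) at least 2-fold lower, near the 19.1% and 18.3% of all loci. The proton pump subunit ATP6V1D had 135 FPKM in FC and 23 FPKM in EC. ATP6V0A1, of the same pump, had 47.8 FPKM in FC and 9.94 FPKM in EC. The protease CTSL2 had 87.4 FPKM in FC and 255 FPKM in EC.

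Chaperones differed by member. Of 65 heat shock and chaperonin loci, 26 (40%) were at least 2-fold higher in FC and 8 (12.3%) at least 2-fold lower. The shares of all loci were 19.1% and 18.3%. At a mean of 20 to 100 FPKM 33.8% of all loci were higher, and at 100 to 500 FPKM 41.7%. The part of level in this list was not tested. The list holds members of the cytosol and of the endoplasmic reticulum (ER). The small heat shock protein HSPB8 had 43.3 FPKM in FC (95% interval 2.97 to 141), against 1.58 FPKM in EC (0.482 to 2.65). HSP70 had 623 FPKM in FC and 47.5 FPKM in EC. HSPH1, an exchange factor of that family, had 28.3 FPKM in FC and 3.28 FPKM in EC. The abundant cytosolic members HSPA8, with 439 FPKM in FC and 315 FPKM in EC, and HSP90AA1, with 391 FPKM in FC and 210.0 FPKM in EC, lay within 2-fold. Of the ER members, HSPA5, the chaperone BiP, had 58.1 FPKM in FC and 273 FPKM in EC. HSP90B1 had 29.6 FPKM in FC and 176 FPKM in EC. SERPINH1, the collagen chaperone, had 112 FPKM in FC and 386 FPKM in EC, whereas MANF, a stress-induced ER protein, had 257 FPKM in FC and 239 FPKM in EC. The list of the unfolded protein response and secretory path lay below the median locus, with a median of -0.83. Of 42 loci, 19 (45.2%) were at least 2-fold lower and 1 (2.38%) at least 2-fold higher, against 18.3% and 19.1% of all loci. PDIA5, a disulfide isomerase, had 4.94 FPKM in FC (95% interval 0.982 to 9.6), against 43.7 FPKM in EC (14.1 to 73.3). The factor ATF4 had 114 FPKM in FC and 297 FPKM in EC, whereas the signal recognition particle subunit SRP9 had 105 FPKM in FC and 41.7 FPKM in EC.

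Ribosomal proteins differed little between the regions. The 65 cytosolic ribosomal loci had a median of -0.10, with quartiles of -0.38 and 0.14, and 3 were at least 2-fold higher and 1 at least 2-fold lower, a share well under that of all loci. RPL38 stood apart with 9701 FPKM in FC and 1659 FPKM in EC. Translation factors (0.35) and aminoacyl-tRNA synthetases (0.72) had medians above the median locus. At least 2-fold higher were 15 of 49 (30.6%) and 5 of 21 (23.8%), against 19.1% of all loci. That share of all loci was 33.8% at a mean of 20 to 100 FPKM and 41.7% at 100 to 500 FPKM. The part of level in these 2 lists was not tested. PABPC1, which binds poly(A) tails, had 4877 FPKM in FC and 729 FPKM in EC. PABPC4, its relative, had 74.1 FPKM in FC and 13.3 FPKM in EC, without overlap. EIF5, which helps choose the start codon, had 1069 FPKM in FC and 129.9 FPKM in EC. GARS, the glycine enzyme, had 64.2 FPKM in FC and 14.9 FPKM in EC.

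**Figure D5:**
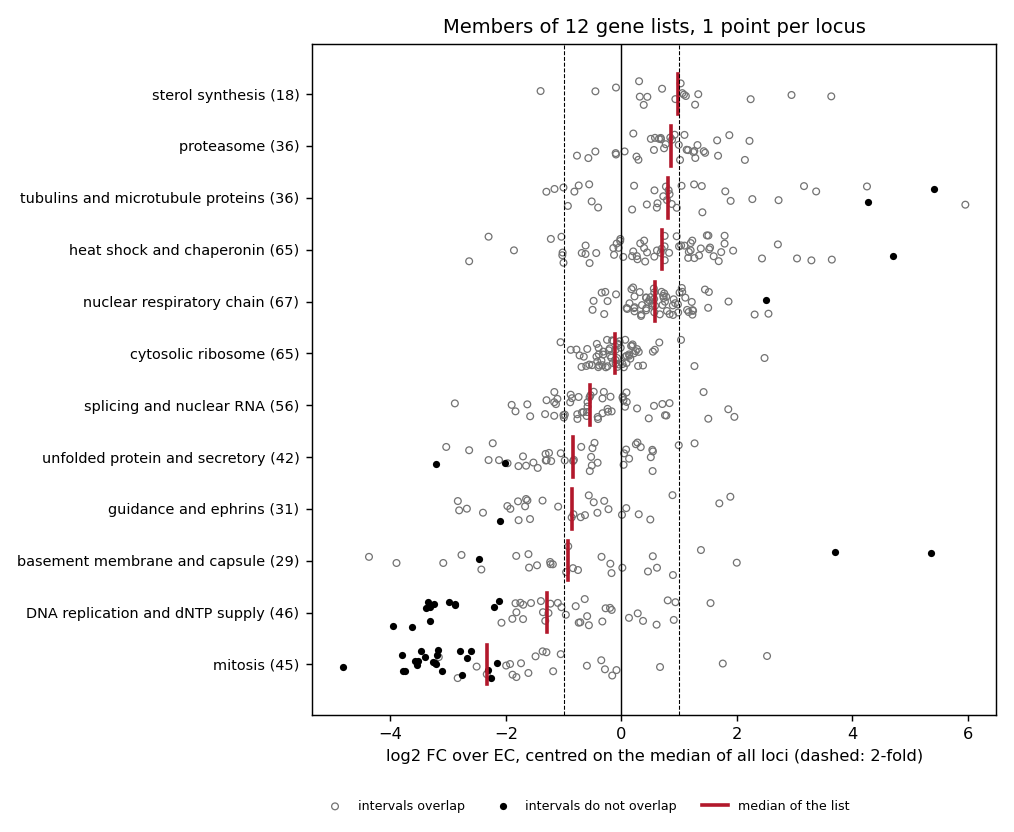
Centred log2 ratio of FC over EC (horizontal) of every member of 12 gene lists measured in both regions, 1 point per locus, filled where the deposited intervals do not overlap; the red bar is the median of the list and the dashed lines mark 2-fold. The proteasome (median 0.86), the respiratory chain (0.58) and the cytosolic ribosome (-0.10) are narrow, while mitosis (-2.33) is wide and holds 22 filled points on the low side.

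Defences against oxidants had members at both ends. GLRX, a glutaredoxin that reduces protein mixed disulfides, had 651 FPKM in FC (95% interval 61.2 to 1255), against 9.47 FPKM in EC (1.02 to 17.9), 65.6-fold higher in FC. MSRA, which repairs oxidised methionine, had 97.6 FPKM in FC (95% interval 17.4 to 178), against 6.00 FPKM in EC (2.17 to 9.72). HMOX1, heme oxygenase, had 9.64 FPKM in FC and 1.08 FPKM in EC. SESN1 had 53.9 FPKM in FC and 9.12 FPKM in EC. The intervals of these 4 did not overlap. GPX1, glutathione peroxidase, had 898 FPKM in FC and 154 FPKM in EC. Lower in FC was SOD3, the secreted superoxide dismutase, with 2.94 FPKM in FC (95% interval 0.857 to 5.14), against 33.9 FPKM in EC (12.4 to 55.5). The membrane enzyme MGST1 had 11.3 FPKM in FC and 59.7 FPKM in EC, also without overlap. CAT, catalase, had 1.65 FPKM in FC and 4.37 FPKM in EC. The list had 12 of 40 loci (30%) at least 2-fold higher and 5 (12.5%) at least 2-fold lower. The shares of all loci were 19.1% and 18.3%, or 33.8% and 12.8% at a mean of 20 to 100 FPKM. The part of level in the antioxidant list was not tested.

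Transport across the cell membrane showed large differences at single carriers. SLC12A2, the sodium, potassium and chloride cotransporter, had 3.3 FPKM in FC (95% interval 0.635 to 7.43), against 32.6 FPKM in EC (8.43 to 56.7). ATP1B1, the beta chain of the sodium pump, had 36.5 FPKM in FC and 12.8 FPKM in EC. The calcium pump ATP2B1 had 8.61 FPKM in FC and 35.4 FPKM in EC. ATP2B4, of the same family, had 2.77 FPKM in FC and 15.7 FPKM in EC. Of 129 solute carriers 27 were at least 2-fold higher and 37 at least 2-fold lower in FC (20.9% and 28.7%, against 19.1% and 18.3% of all loci). SLC29A4, a monoamine and nucleoside transporter, had 3.85 FPKM in FC (95% interval 1.35 to 6.29), against 113 FPKM in EC (15.8 to 210.1). SLC16A12, a carrier mutated in a human juvenile cataract, had 2.55 FPKM in FC (95% interval 0.489 to 5.49), against 35 FPKM in EC (13 to 57). SLC25A22, a mitochondrial glutamate carrier, had 28 FPKM in FC (95% interval 11.9 to 44), against 1.19 FPKM in EC (0.149 to 2.08). The glucose transporter SLC2A1 had 239 FPKM in FC and 326 FPKM in EC. Among channels, CLIC5 had 149 FPKM in FC and 1.07 FPKM in EC. TRPM1, a cation channel known from melanocytes and retina, had 24.3 FPKM in FC and 128 FPKM in EC.

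Genes of programmed cell death lay on both sides. Of 26 loci, 6 (23.1%) were at least 2-fold higher and 9 (34.6%) at least 2-fold lower, against 19.1% and 18.3% of all loci. DFFB, the nuclease that cuts chromatin in apoptosis, had 141 FPKM in FC and 3.42 FPKM in EC. DFFA, its inhibitor and chaperone, had 67.2 FPKM in FC and 17.2 FPKM in EC. CASP9 had 14.4 FPKM in FC and 4.81 FPKM in EC. BIRC5, survivin, which also serves in mitosis, had 2.37 FPKM in FC (95% interval 0.248 to 4.49), against 20.5 FPKM in EC (4.85 to 36.1). Of 9 loci in a small list labelled erythroid regulators, 3 lay under the minimum in both regions and HEMGN reached it in EC only. Of the other 5, 4 (80%, against 19.1% of all loci) were at least 2-fold higher in FC. The list was chosen with earlier results of these data known, so its counts and median describe these loci only. The median of the list was 6.04, but -0.19 when any FPKM above 0 was let in. GYPC, glycophorin C, had 590.2 FPKM in FC and 5.99 FPKM in EC. LMO2, a cofactor in blood cell transcription, had 194 FPKM in FC and 2.82 FPKM in EC. BPGM, which makes bisphosphoglycerate, had 129.6 FPKM in FC and 6.67 FPKM in EC. HOPX had 1465 FPKM in FC and 8.04 FPKM in EC, whereas SPTB, the erythrocyte beta spectrin, had 1.1 FPKM in FC and 1.33 FPKM in EC. HEMGN had 0.816 FPKM in FC and 1.26 FPKM in EC. None had intervals apart, and the globins given above ran the other way. Annexins and S100 proteins centred near the median locus, with ANXA1 at 26.3 FPKM in FC (95% interval 7.21 to 45.3), against 2.01 FPKM in EC (0.636 to 3.39). ANXA11 had 1.04 FPKM in FC and 4.95 FPKM in EC. Of the granins and neuropeptides, CHGB, secretogranin 1, had 2.21 FPKM in FC (95% interval 0.716 to 3.71), against 92.3 FPKM in EC (30.2 to 153), 43.7-fold lower in FC, while SCG2, secretogranin 2, was measured in FC only with 32.2 FPKM in FC and 0.876 FPKM in EC.

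Some of the largest differences lay outside these lists. HOMER2, a postsynaptic scaffold protein, had 62.5 FPKM in FC (95% interval 20.9 to 104), against 1.4 FPKM in EC (0.298 to 2.39). CHRM4, a muscarinic receptor, had 185 FPKM in FC (95% interval 60.6 to 310.1), against 5.45 FPKM in EC (1.93 to 8.91). SH3BGRL2, a small thioredoxin-fold protein, had 173 FPKM in FC (95% interval 40.8 to 237), against 3.51 FPKM in EC (0 to 6.2). XIRP1, an actin-binding protein of muscle, had 688 FPKM in FC and 5.37 FPKM in EC. CHAC2, a glutathione-degrading enzyme, had 527 FPKM in FC and 3.28 FPKM in EC. The small GTPase RAB40B had 223 FPKM in FC and 1.43 FPKM in EC. The intervals of XIRP1, CHAC2 and RAB40B overlapped. R3HDML had the lowest ratio of all loci in both regions, with 6.1 FPKM in FC (95% interval 2.06 to 10.1), against 561 FPKM in EC (21.1 to 1387), 96.4-fold lower in FC. CCDC3, a secreted protein, had 11.6 FPKM in FC and 636 FPKM in EC with overlap. PODXL, podocalyxin, a sialomucin of apical membranes, had 2.15 FPKM in FC (95% interval 0.626 to 3.82), against 61.6 FPKM in EC (12.5 to 111). GCH1, the first enzyme of tetrahydrobiopterin synthesis, had 1.64 FPKM in FC (95% interval 0.0597 to 3.96), against 35.7 FPKM in EC (13.4 to 58).

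For loci that reached 1 FPKM in a single region the minimum fixed the direction, though not the size of the difference, so they are listed apart. Of the 493 in FC only, 109 reached 5 FPKM and 6 were listed at 0 in EC. Of the 959 in EC only, 106 reached 5 FPKM and 17 were listed at 0 in FC. Overlap of intervals is not counted here, as these loci passed the minimum only through the region where they were high. Besides HSF4, the highest in FC included HEBP2, a heme-binding protein, with 80.8 FPKM in FC (95% interval 3.27 to 231), against 0.662 FPKM in EC (0 to 1.94), B3GALT2, a galactosyltransferase, with 53.8 FPKM in FC and 0.572 FPKM in EC, and SALL1, a zinc finger repressor, with 46.2 FPKM in FC and 0.741 FPKM in EC. Those in EC included GEM, a small GTPase that restrains calcium channels, with 0.961 FPKM in FC (95% interval 0 to 2.45), against 53.3 FPKM in EC (12.9 to 94.2), ADPRHL1 with 0.571 FPKM in FC and 53 FPKM in EC, NPR3, the clearance receptor of natriuretic peptides, with 0.889 FPKM in FC and 35.6 FPKM in EC, and PTPRO, a receptor phosphatase, with 0.66 FPKM in FC and 25.2 FPKM in EC. MKI67, the proliferation marker Ki-67, was also in this set, with 0.766 FPKM in FC (95% interval 0.138 to 1.48), against 7.93 FPKM in EC (1.97 to 13.9). At the minimum itself, BAFF lay just inside with a larger value of 1.00 FPKM and RAB3B just outside with 0.999 FPKM.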

How the data were processed

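The lens regions of E13 chickens were sequenced as 35-base single-end reads from Illumina directional mRNA libraries. Per the study's methods and the labels, the authors removed adaptors, aligned with TopHat to Galgal4 and estimated abundance with Cufflinks. Cuffdiff 2.1.1 joined the 2 libraries of a region into the FPKM deposited by the authors, 1 per locus and region, with bounds of its 95% interval, both scaled between libraries. The table holds no read totals, and how depth bears on a value was not examined. A table of the authors' comparisons between regions, with fold changes, p-values and q-values, was not used. The number of columns of per-sample values left unmapped was 0.

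Loci with a symbol and at least 1 FPKM in FC or EC were kept, and small RNA names and bare Ensembl identifiers were left out. The ratio of FC to EC was taken without a pseudocount at loci of 1 FPKM or more in both regions and centred on its median. Intervals were compared after scaling FC by the same factor, and the least fold is the fold between their nearest ends. Overlap of intervals is not a test. Members and gene lists were chosen with earlier results of these data known, and list members were matched by symbol with hyphens removed at loci with exactly 1 symbol. Loci could be named under a rule that took the 15 highest and 15 lowest ratios, the 15 largest least folds in each direction, the 10 highest FPKM in each region, the 8 highest of loci at the minimum in a single region, and, in each of 46 lists, all members up to 15 or else the 4 highest, the 4 lowest and the 3 most abundant. Members of the fiber, crystallin, transcription factor and marker lists could all be named. CDC2, COL9A1, COL9A2, COL9A3, IFT43, MCM2, MKI67, MYO18A, MYO5A, PLK1, RNF122, SQSTM1 and VIM were picked outside this rule after their values were seen. Of the 9932 loci, 116 stood for merged gene models, 69 symbols occurred at more than 1 locus and 48 loci had an FPKM outside their own interval. The scripts were tested on simulated data. Python 3.11.15, numpy 2.4.6, pandas 2.3.3 and matplotlib 3.10.9 were used.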

Additional observations from a re-analysis of the deposited data

How the results depend on the processing

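No paired analysis was possible because the table holds 1 pooled value per region and no value of a single library, and for the same reason no replicate could be left out. A planned search for promoter motifs was not run, as no promoter sequences were at hand. Of the 12 alternatives, 11 give a ratio for single loci, and 250 loci of the text measured in both regions were followed. None of these changed direction under a minimum of 0.5 FPKM, no minimum, a pseudocount of 1 or 0.1, no centring, centring on ribosomal loci, or without merged loci and loci outside their own interval. Apart from the pseudocounts, these settings only shift every log2 value by a constant of at most 0.15. A pseudocount cannot turn the ratio before centring. Few signs could therefore change, and this says little about single loci. Centring on upper quartiles changed the sign of 1, MANF, which was level in both regions, and centring on FPKM totals that of 16, among them SPARC (0.0299), ITGB1 (0.24) and PCNA (0.0266), which had been at least 2-fold lower in FC. A minimum of 5 FPKM gave no value for 94 of them and changed the sign of 1, again MANF.

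With a minimum of 5 FPKM in both regions, 862 loci were at least 2-fold higher and 748 at least 2-fold lower in FC, and intervals did not overlap at 43 and 61. With any FPKM above 0 the counts were 2572, 2634, 303 and 308. At a threshold of 4-fold, 601 loci were higher and 445 lower. Centred on upper quartiles, 1135 were at least 2-fold higher, and intervals did not overlap at 102 loci higher and 313 lower in FC, and centred on FPKM totals at 794 and 26, with 5065 and 330 loci past 2-fold. The cause was not tested beyond the shift that each centring adds to every value.

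List medians left the binomial interval of the median as follows (log2, FC over EC). With a minimum of 5 FPKM they were 0.53 for purine and pyrimidine metabolism, 0.40 for nuclear respiratory chain, -0.29 for cytosolic ribosome and -1.01 for mitosis. With any FPKM above 0 the value was 0.0529 for cytosolic ribosome. In that setting the median of erythroid regulators changed sign to -0.19, after loci near 0 entered a list of 5, but stayed within its wide interval (-0.34 to 7.44). Centred on ribosomal loci the value was 0 for cytosolic ribosome. Centred on upper quartiles they were 0.51 for proteasome, 0.24 for nuclear respiratory chain, 0.0027 for translation factors, -0.0171 for mitochondrial ribosome, -0.35 for antioxidant and glutathione, -0.36 for RNA granule and RNA-binding proteins, -0.45 for cytosolic ribosome, -0.64 for solute carriers, -0.74 for chromatin enzymes and remodelers, -0.86 for tight junctions and connexins, -0.88 for purine and pyrimidine metabolism and -0.89 for splicing and nuclear RNA. Centred on FPKM totals they were 2.24 for sterol synthesis, 2.12 for proteasome, 2.06 for tubulins and microtubule proteins, 1.97 for aminoacyl-tRNA synthetases, 1.95 for heat shock and chaperonin, 1.94 for ubiquitin conjugating enzymes, 1.84 for nuclear respiratory chain, 1.70 for autophagy, 1.61 for translation factors, 1.59 for mitochondrial ribosome, 1.53 for fatty acid and membrane lipid synthesis, 1.51 for annexins and S100, 1.35 for lysosome, 1.33 for IGF and insulin, 1.28 for cadherins catenins and integrins, 1.27 for glycolysis and lactate, 1.26 for antioxidant and glutathione, 1.25 for neuropeptides and granins, 1.24 for RNA granule and RNA-binding proteins, 1.15 for cytosolic ribosome, 1.06 for channels and aquaporins, 1.04 for nuclear lamina and pores, 0.96 for solute carriers, 0.93 for G1 cell cycle regulators, 0.87 for chromatin enzymes and remodelers, 0.83 for apoptosis, 0.80 for BMP and TGF-beta, 0.72 for purine and pyrimidine metabolism, 0.71 for splicing and nuclear RNA, 0.69 for Wnt, 0.43 for unfolded protein and secretory, 0.39 for guidance and ephrins, 0.34 for basement membrane and capsule, -0.0344 for DNA replication and dNTP supply and -1.08 for mitosis.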

Other observations

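Loci that share the letters of their symbol were also grouped without any list, which gave 87 symbol stems with at least 10 loci at 1 FPKM or more in both regions. Among them the unconventional myosins (MYO, 11 loci) had a median centred log2 ratio of FC over EC of 1.25. MYO18A had 112 FPKM in FC and 33.6 FPKM in EC, while MYO5A, a cargo motor, had 9.7 FPKM in FC and 27.5 FPKM in EC. The ring finger genes (RNF, 49 loci), many of them ubiquitin ligases, had a median of 0.66. Of these, 19 were at least 2-fold higher and 4 at least 2-fold lower in FC, against 19.1% and 18.3% of all loci. RNF182 had 51.3 FPKM in FC (95% interval 16.9 to 85.7), against 1.01 FPKM in EC (0 to 1.93), and RNF122 had 19.5 FPKM in FC and 2.26 FPKM in EC, also without overlap.

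Collagen genes (COL, 18 loci, of which COL4A3BP encodes a ceramide transfer protein and no collagen) had a median of -1.92. At least 2-fold lower in FC were 13 and at least 2-fold higher 1, against 18.3% and 19.1% of all loci. The mesenchyme markers COL1A2 and COL5A1 are among the COL loci, and the part of mesenchyme was not tested. Beyond the capsule chains, the 3 chains of type IX collagen, which sits on the surface of fibrils in cartilage and in the vitreous body, were low together. COL9A1 had 10.6 FPKM in FC and 92.1 FPKM in EC, COL9A2 had 28.6 FPKM in FC and 184 FPKM in EC, and COL9A3 had 18.9 FPKM in FC (95% interval 6.54 to 31.3), against 121 FPKM in EC (32.2 to 209.8), the only chain of the 3 without overlap. The intraflagellar transport genes (IFT, 12 loci), which build cilia, had a median of -0.70. Of these, 5 were at least 2-fold lower and none at least 2-fold higher, against 18.3% and 19.1% of all loci. IFT43 had 4.3 FPKM in FC and 15.6 FPKM in EC. Centrosomal genes (CEP, 13 loci) had a median of -0.76. Kinesin genes (KIF, 18 loci) had a median of 0.58.

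By chromosome, the median centred log2 ratio ran from -0.16 on chromosome 20 to 0.38 on chromosome 22. The cause of these differences was not tested.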
